A study of Mus musculus with 16 samples.

Results

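The enzymes that make, break down and read cyclic AMP and cyclic GMP were followed in the cortex of newborn and 7-day-old mice, with and without forebrain deletion of the forkhead transcription factor gene Foxp1. The set was defined by gene symbol alone, though it was chosen with earlier results of these data known. It holds the adenylyl cyclases (Adcy), the phosphodiesterases (Pde) and the guanylyl cyclases (Gucy). It also holds the catalytic and regulatory subunits of cyclic AMP-dependent protein kinase (PKA) and cyclic GMP-dependent protein kinase (PKG). The set has 49 of the 20841 genes of the deposited table, whose label says that X and Y genes are left out. All genes below means the genes of that table. Of these, 44 reached 1 CPM (the authors' read count scaled to a common library total) in at least 1 library, and 5 stayed under 1 CPM in every library, with 0.720 CPM as their highest value. Pde12, known as a mitochondrial RNA-processing enzyme, and Pde6d, known as a carrier of prenylated proteins, match the symbols but do not break down cyclic nucleotides, and they were kept out of the make-up of the phosphodiesterase family given below.

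Adenylyl cyclases convert ATP to cyclic AMP, mostly under the control of G protein-coupled receptors, and soluble guanylyl cyclase converts GTP to cyclic GMP when nitric oxide binds it. Phosphodiesterases hydrolyse the second messengers, each family with its own preference for cyclic AMP or cyclic GMP and its own regulators, such as calcium and calmodulin for the Pde1 family. In the developing cortex the calcium-stimulated cyclase Adcy1 is known for its part in the refinement of thalamocortical maps, and cyclic AMP signalling is known to steer axon growth and neuronal migration.

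Control mice and mice with a forebrain-specific conditional knockout (cKO) of Foxp1 were each sampled at postnatal day 0 (P0) and day 7 (P7), with 4 libraries in each of the 4 groups and 16 in all. Polyadenylated RNA came from the right hemisphere's cortex. The sources used here do not give the Cre driver, the alleles that the controls carry, or whether each library is a separate animal, so p-values measure only the spread between these libraries. Sequencing was on a BGISEQ-500 for P0 and on a NextSeq 500, at another centre, for P7, so age and sequencing cannot be told apart. In bulk tissue, fewer cells of a type and less RNA per cell cannot be told apart either.

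Because Foxp1 encodes a forkhead factor, the promoters of Pde1a and Adcy2, genes called below, were read for the core letters TGTTTAC and TGTTTAT on either strand, and for the cyclic AMP response element TGACGTCA and its core TGACG, which lies within it. RefSeq (GRCm38.p6) gave windows of 300 bases around a transcript start, most of it upstream, with 4 windows for the calcium/calmodulin-dependent phosphodiesterase Pde1a and 1 for the cyclase Adcy2. The outermost Pde1a window (chr2:80129363-80129662, minus strand), the next one (chr2:80128922-80129221, minus strand), in which capitals mark the forkhead core, and the Adcy2 window (chr13:68999492-68999791, minus strand) are shown because these genes carry opposite changes at P7. The promoter of the third called gene, Pde3a, was not read.
Pde1a, outermost start: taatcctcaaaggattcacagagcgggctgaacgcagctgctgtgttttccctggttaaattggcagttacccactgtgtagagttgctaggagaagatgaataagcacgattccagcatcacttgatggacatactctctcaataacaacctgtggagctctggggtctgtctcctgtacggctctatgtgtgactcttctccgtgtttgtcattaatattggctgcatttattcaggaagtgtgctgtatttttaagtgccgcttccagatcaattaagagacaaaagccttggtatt
Pde1a, next start: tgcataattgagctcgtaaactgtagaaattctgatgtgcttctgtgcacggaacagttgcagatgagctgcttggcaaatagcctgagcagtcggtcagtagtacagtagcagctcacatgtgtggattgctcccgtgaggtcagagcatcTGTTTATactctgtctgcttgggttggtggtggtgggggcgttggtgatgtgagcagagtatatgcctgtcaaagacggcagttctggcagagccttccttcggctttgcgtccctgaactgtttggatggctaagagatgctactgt
Adcy2: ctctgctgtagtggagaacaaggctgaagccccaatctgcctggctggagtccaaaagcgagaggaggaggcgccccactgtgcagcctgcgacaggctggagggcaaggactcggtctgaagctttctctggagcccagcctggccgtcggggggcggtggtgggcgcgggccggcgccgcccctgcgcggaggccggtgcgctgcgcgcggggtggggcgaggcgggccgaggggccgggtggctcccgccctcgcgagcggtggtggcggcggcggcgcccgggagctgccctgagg
The Adcy2 window is 75% G and C and holds none of the motifs, while the Pde1a windows shown are 44.3% and 50.3% G and C. The Pde1a windows not shown hold no forkhead core, and the window at chr2:80038853-80039152 holds the TGACG core. With 4 windows read for Pde1a and 1 for Adcy2, the genes cannot be compared for these motifs. A forkhead core was found in 7 of the 79 windows of 39 members, and in 8.03% of the 31396 windows of all genes. The full response element was found in 2 of the 79 windows against 1.83% of all windows, and its core in 18 against 21.0%. These matches are letters only and do not show binding.

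Recovered library totals were 17957490 to 18232943 reads at P0 and 9858296 to 15335738 at P7. Foxp1 ranged from 273 to 364 CPM in P0 controls and from 131 to 182 CPM in P0 cKO libraries, and from 375 to 539 and 162 to 246 CPM at P7, so the groups did not overlap at either age (exact two-sided permutation p = 0.0286, the smallest that 70 assignments give). Cortical excitatory markers were high in every library, with summed levels of 3195 to 3961 CPM in newborn and 1039 to 1338 CPM in older cortex, and choroid plexus markers summed to at most 5.09 CPM. At P0 the control libraries 2 and 6 stood apart on the first principal component (46.5% of the variance), at 38.1 and 19.5 against -17.9 to -0.443 in the other 6 libraries. At P7 the control library 43 had 534 CPM of summed striatal markers, against 225 to 242 CPM in the other 3 controls and 270 to 441 CPM in cKO cortex. All 13 markers were detected in it, as in every other library except P7 control library 46, which had 12.

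At P7, 3 members changed with Foxp1 deletion. The phosphodiesterases Pde1a and Pde3a rose and the cyclase Adcy2 fell, each by less than 1.5-fold in mean CPM. Limma, on log2(CPM + 1) with Benjamini-Hochberg adjustment over all genes, called 2 of 44 tested members higher and 1 lower at an adjusted p under 0.05, where 1.67% of all 12828 genes tested were called higher and 2.05% lower. The median log2 fold change was 0.08 over the members and 0.03 over all genes. At P0 none of 42 members was called, against 0.254% of 12580 genes. At P0, 9 members had an unadjusted p under 0.05, as did 18.1% of all genes. On the recovered reads, edgeR called 0 members and 0.238% of all genes, and DESeq2 3 members and 3.41% of all genes. The plot of genotype differences shows every tested member at both ages.

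**Figure D1:**
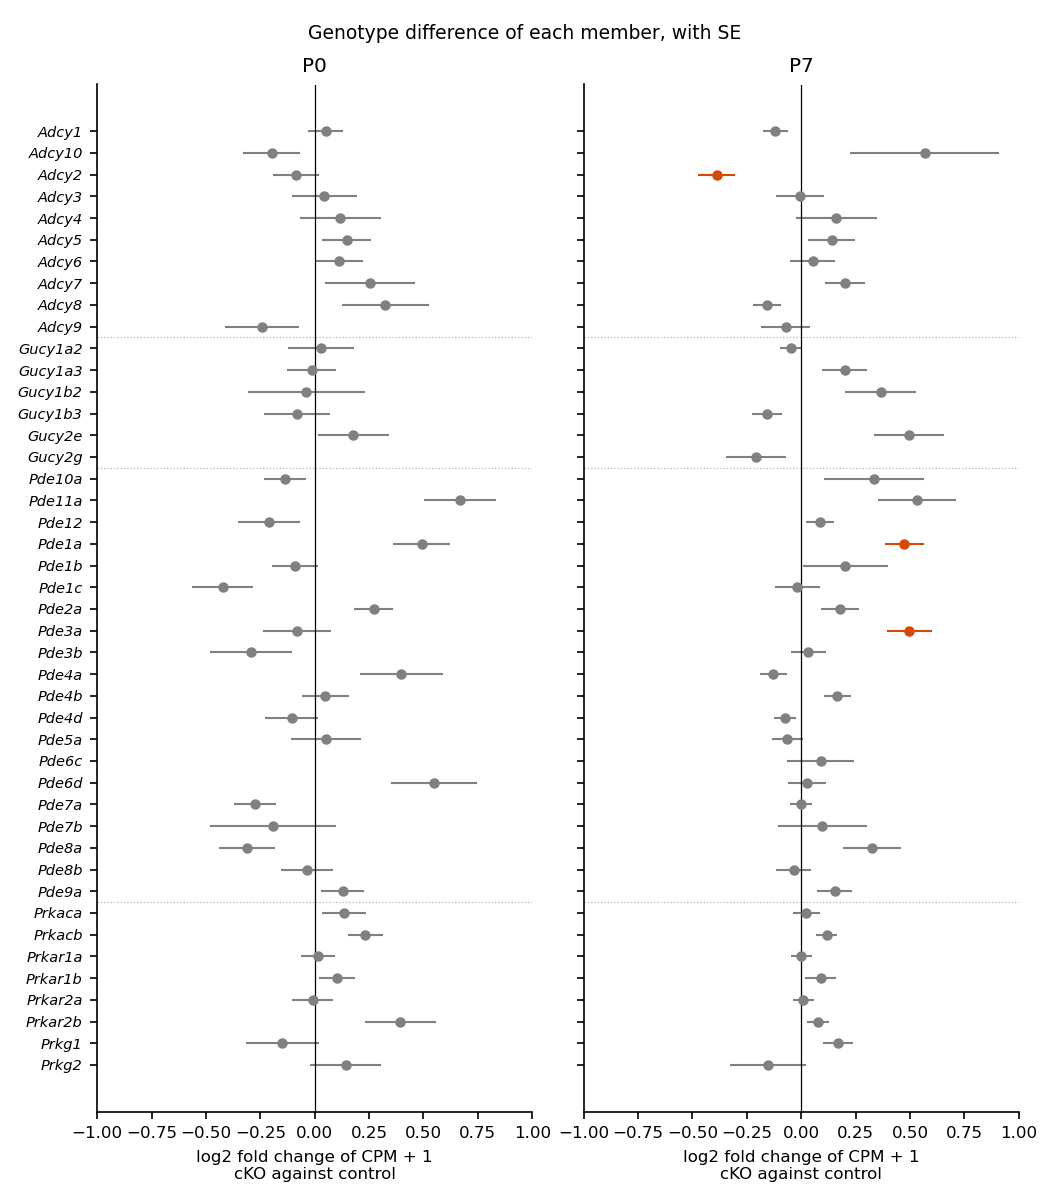
Log2 fold change of CPM + 1 (x axis) between cKO and control cortex for each tested member (y axis, grouped by enzyme class with dotted lines between classes) at P0 and P7, with bars for the standard error from limma and orange points for adjusted p under 0.05. Only Adcy2, Pde1a and Pde3a at P7 are orange, at -0.39, 0.47 and 0.50.

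The adenylyl cyclases were led by Adcy1 at both ages. Per kilobase of exon, Adcy1 made up 56.4% ± 2.29 of the summed cyclase level in P0 controls and 66.2% ± 1.39 in P7 controls (SD, n = 4). The sum itself was 99.2 ± 6.95 CPM per kb at P0 and 199.04 ± 0.770 at P7, and 102 ± 6.38 and 183 ± 13.8 CPM per kb in P0 and P7 cKO cortex. Next in P7 controls came Adcy2, which is stimulated by G protein beta-gamma subunits, at 12.6% and Adcy8, another calcium-stimulated cyclase, at 8.24%. Adcy8 held 1.40% at P0, while the calcium-inhibited cyclases Adcy5 and Adcy6 went from 12.2% and 8.83% at P0 to 5.21% and 1.55% at P7.

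**Figure D2:**
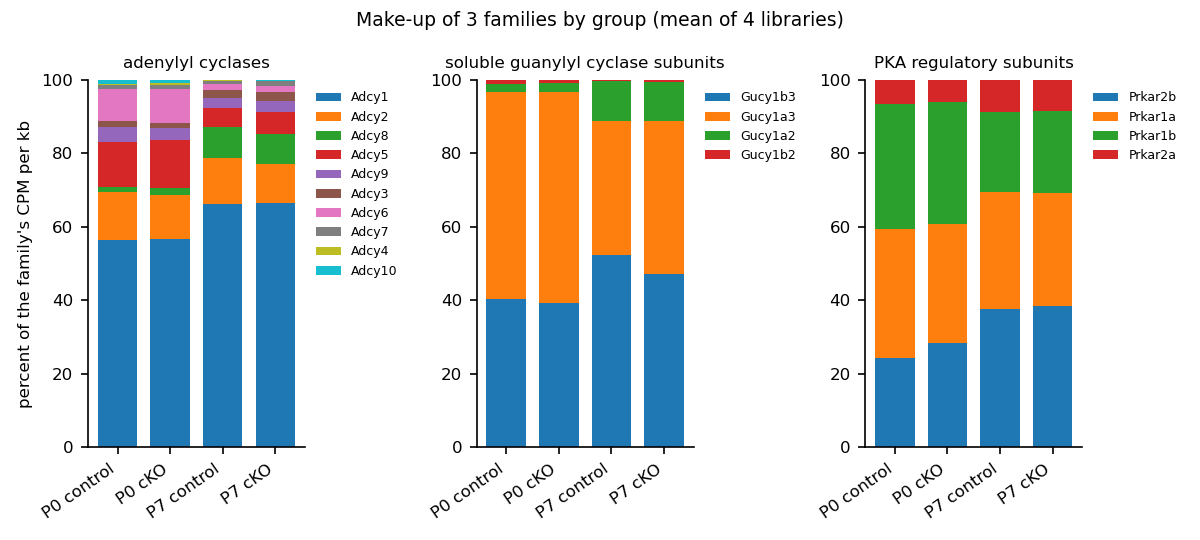
Share of each gene (y axis, percent of the family's summed CPM per kb of exon, mean of 4 libraries) in the adenylyl cyclases, soluble guanylyl cyclase subunits and PKA regulatory subunits, for the 4 groups (x axis). Adcy1 takes the largest part of the cyclase bar in every group, from 56.4% in P0 controls to 66.5% in P7 cKO cortex, and the Gucy1a2 share of guanylyl cyclase goes from 2.35% to 11.01% between P0 and P7 controls.

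Adcy2 (chromosome 13, 68620043 to 68999541, minus strand, GRCm38) was measured in P7 control libraries 43, 45, 46 and 47 at 96.9, 119.4, 111 and 96.2 CPM. In P7 cKO libraries 41, 42, 44 and 48 it had 86.7, 86.7, 80.9 and 68.5 CPM. All 4 cKO values lay below all 4 control values, and the mean fell from 106 ± 11.4 to 80.7 ± 8.58 CPM (SD, n = 4), a log2 fold change of -0.39 (SE 0.08, limma adjusted p = 0.0165). At P0 the ranges of 47.6 to 58.2 CPM in controls and 46.03 to 56.7 CPM in cKO cortex overlapped, at -0.09 (SE 0.11, adjusted p = 0.673). The P7 call was lost without control library 45 (adjusted p = 0.0618), without control library 46 (0.0737), with no filter on low values (0.0528) and in 1 fit over all 16 libraries (0.0567). The difference between the effects at the 2 ages was -0.30 (SE 0.14, adjusted p = 0.304).

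The other cyclases did not pass at either age. Adcy1 had a mean of 1651 ± 36.2 CPM in P7 controls and 1524 ± 139 CPM in P7 cKO cortex (SD, n = 4), a log2 fold change of -0.12 (SE 0.06, adjusted p = 0.377). Adcy8 (chromosome 15, 64697084 to 64922296) had 125 to 144 CPM in P7 controls and 105 to 127 CPM in cKO libraries, at -0.16 (SE 0.07, adjusted p = 0.266). At P0, control libraries 1, 2, 5 and 6 held 7.46, 12.1, 9.45 and 16.8 CPM of Adcy8, whereas cKO libraries 3, 4, 7 and 8 held 15.3, 14.4, 12.2 and 14.2 CPM, so its log2 fold change was 0.32 (SE 0.20, adjusted p = 0.394). Without P0 control libraries 2 and 6 the P0 value of Adcy8 was 0.67 (adjusted p = 0.0448) and the difference between ages was -0.83 (adjusted p = 0.00495), against -0.48 (SE 0.22, adjusted p = 0.290) with them. Libraries 2 and 6 held the highest control values of Adcy8, so leaving them out raises the P0 difference by construction. Only control libraries 1 and 5 then remained at P0. Whether libraries 2 and 6 distort the full comparison was not tested.

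Adcy7 was the other cyclase whose P7 groups did not overlap, at 11.2 to 12.9 CPM in controls and 13.01 to 14.6 CPM in cKO cortex, with a log2 fold change of 0.20 (SE 0.09, adjusted p = 0.347). Groups failed to overlap for 5 members at P7, namely the 3 called genes, Adcy7 and Gucy2e, and for 8.88% of all genes tested. Adcy10, the soluble bicarbonate-sensitive cyclase, had 8.51 to 10.8 CPM in P0 controls and 8.14 to 8.46 CPM in P0 cKO cortex, which did not overlap, at -0.20 (SE 0.13, adjusted p = 0.430). Its P7 cKO values of 2.48, 1.26, 3.09 and 8.32 CPM overlapped the control range of 0.729 to 2.94 CPM, with 1 library far above the rest. Adcy5, the cyclase that dominates in striatal neurons, had 77.2 to 106 CPM in P0 controls and 84.2 to 107 CPM in P0 cKO cortex, at 0.15 (SE 0.11, adjusted p = 0.498). Adcy9, a widely expressed cyclase, had 17.4 to 27.9 and 14.3 to 22.9 CPM at P0, at -0.24 (SE 0.17, adjusted p = 0.460). Both sets of ranges overlapped. The remaining cyclases had mean levels of 28.9 CPM (Adcy3), 1.05 CPM (Adcy4) and 21.0 CPM (Adcy6) in P7 controls, and 8.86, 1.37 and 58.9 CPM in P0 controls.

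The phosphodiesterases changed their order with age. Per kilobase, the cyclic GMP-stimulated Pde2a (19.0%), the cyclic AMP-specific Pde7a (15.2%), the cyclic GMP-specific Pde9a (12.9%) and Pde1b (10.7%) led in P0 controls. In P7 controls Pde1a (18.5%) and the cyclic AMP-specific Pde4d (15.99%) came first, ahead of Pde2a (11.8%). The family sum over 18 genes was 140.3 ± 3.96 CPM per kb in P0 controls and 169 ± 7.90 in P7 controls (SD, n = 4). The predicted gene Gm45837 overlaps Pde2a on the same strand, and other genes hold 62.8% of the 50-base stretches of Pde2a, so its reads are uncertain.

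Pde1a (chromosome 2, 79834453 to 80129458, minus strand) was read at 154, 211, 203 and 179 CPM in the P7 controls 43, 45, 46 and 47. The P7 cKO libraries 41, 42, 44 and 48 gave 229, 252, 295 and 258 CPM. Every cKO value was above every control value, with control library 43 the lowest. The mean rose from 187 ± 25.5 to 259 ± 27.4 CPM (SD, n = 4), a ratio of 1.39 and a log2 fold change of 0.47 (SE 0.09, limma adjusted p = 0.00663). At P0 it had 38.4, 32.7, 36.9 and 39.3 CPM in controls and 63.0, 49.5, 41.3 and 57.0 CPM in cKO cortex, which again did not overlap. The P0 log2 fold change was 0.49 (SE 0.13, limma adjusted p = 0.122), called by DESeq2 (adjusted p = 0.0219) and in 1 fit over all 16 libraries (adjusted p = 0.0214). The effects at the 2 ages differed by -0.02 (SE 0.17, adjusted p = 0.973). In P7 cKO cortex Pde1a was 22.9% ± 2.90 of the family level per kb, against 18.5% ± 2.77 in controls.

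Pde3a, a cyclic GMP-inhibited phosphodiesterase of cyclic AMP (chromosome 6, 141249269 to 141507448, plus strand), had 21.2, 18.6, 14.9 and 17.1 CPM in P7 controls and 23.3, 27.5, 25.5 and 26.2 CPM in P7 cKO cortex. The groups did not overlap, and the mean rose from 17.97 ± 2.67 to 25.6 ± 1.72 CPM (SD, n = 4), a log2 fold change of 0.50 (SE 0.10, limma adjusted p = 0.0120). At P0 the levels were 7.02 to 8.72 CPM in controls and 5.81 to 9.23 CPM in cKO cortex, with a log2 fold change of -0.08 (SE 0.16, adjusted p = 0.798). The difference between ages was 0.58 (SE 0.19, unadjusted p = 0.00559), and its limma adjusted p of 0.155 missed the threshold. The P7 call was lost without control library 46 (adjusted p = 0.0502) and in 1 fit over all 16 libraries (0.0757), where Pde1a also missed (0.0520).

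**Figure D3:**
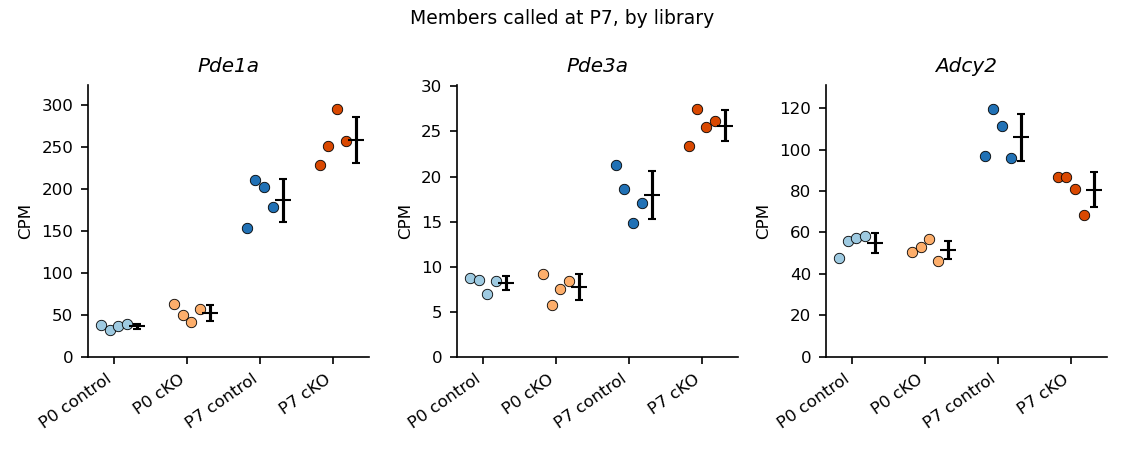
Level of Pde1a, Pde3a and Adcy2 (y axis, CPM, from 0) in each library (points) of the 4 groups (x axis), with a dash and bar for the mean ± SD of 4 libraries. At P7 the cKO points lie wholly above the controls for Pde1a (229 to 295 against 154 to 211 CPM) and Pde3a, and wholly below them for Adcy2.

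At P0, 6 phosphodiesterases separated the groups without passing the test. Over all classes, 8 members did not overlap there between genotypes, 5 higher and 3 lower in cKO cortex, as did 9.86% of all genes tested. The dual-specificity Pde11a had 0.664 to 1.26 CPM in P0 controls and 1.55 to 2.60 CPM in P0 cKO cortex, a log2 fold change of 0.67 (SE 0.16, adjusted p = 0.109). At P7 its ranges of 2.11 to 3.96 and 3.53 to 6.10 CPM overlapped, at 0.53 (SE 0.18, adjusted p = 0.146). Pde2a had 148 to 183.9 CPM in P0 controls and 184.1 to 213 CPM in cKO cortex, at 0.27 (SE 0.09, adjusted p = 0.177). Pde7a (150 to 195 against 127 to 147 CPM) and the cyclic AMP-specific Pde8a (21.1 to 28.0 against 16.5 to 20.6 CPM) were the non-overlapping phosphodiesterases with lower cKO values at P0. Pde6d had 21.6 to 45.4 CPM in P0 controls and 47.8 to 60.3 CPM in cKO cortex, with control library 2 at the low end.

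Pde1c, the third calcium/calmodulin-dependent member, had 20.9 to 32.5 CPM in P0 controls and 18.6 to 21.8 CPM in P0 cKO cortex, at -0.42 (SE 0.14, adjusted p = 0.177). DESeq2 called it lower at P0 (adjusted p = 0.0432), and at P7 its log2 fold change was -0.02. Pde4b, a cyclic AMP-specific enzyme, had 115 to 133 CPM in P7 controls and 131 to 149.9 CPM in P7 cKO cortex, at 0.17 (SE 0.06, adjusted p = 0.194). Pde8a stood at 8.13 to 9.16 CPM in P7 controls and 8.82 to 14.6 CPM in cKO cortex, at 0.32 (SE 0.13), where its P0 value was -0.31 (SE 0.13). The difference between these effects was 0.63 (SE 0.18), which missed the threshold (limma adjusted p = 0.118). Pde3b, Pde4a, Pde4d, Pde5a, Pde8b, Pde9a and Pde12 had P7 log2 fold changes from -0.13 (Pde4a) to 0.15 (Pde9a). In P7 controls these 7 had means of 74.0, 61.8, 323, 32.2, 64.1, 33.0 and 48.1 CPM, in that order, and Pde6c, a cone enzyme, stayed between 0 and 1.38 CPM.

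Pde10a, the dual-specificity enzyme best known from striatal neurons, followed the summed level of striatal markers across the P7 libraries. The P7 controls 43, 45, 46 and 47 gave 317, 135, 133 and 137 CPM, and the P7 cKO libraries 41, 42, 44 and 48 gave 273, 209, 152 and 227 CPM. Library 43, highest of the controls for Pde10a, was also the P7 library with the highest striatal sum. Correlations were taken between log2(CPM + 1) of the gene and log2(CPM + 1) of the marker sum. Over the 8 P7 libraries, Pearson's r was 0.989 (exact permutation p = 4.96e-05, adjusted p = 0.00427 over 86 relations) and Spearman's rho 0.976 (exact permutation p = 0.000397, adjusted p = 0.0341). Without libraries 43 and 41, the 2 farthest from the median, r was 0.972, but the striatal sum then separated the genotypes.

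**Figure D4:**
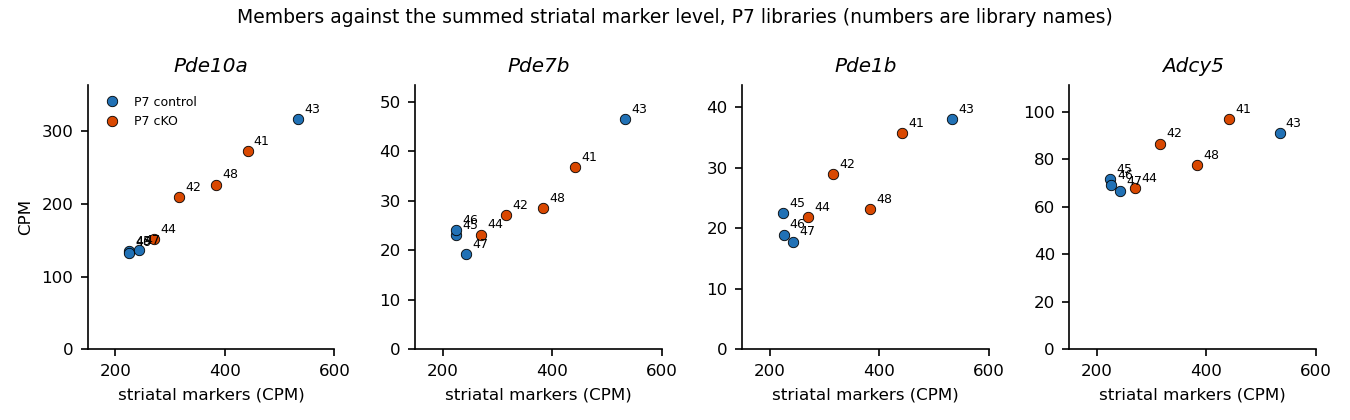
Level of Pde10a, Pde7b, Pde1b and Adcy5 (y axes, CPM, from 0) against the summed CPM of 13 striatal marker genes (x axis) in the 4 control (blue) and 4 cKO (orange) P7 libraries, numbered by library. Pde10a goes from 133 to 317 CPM as the marker sum goes from 225 to 534 CPM.

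For the cyclic AMP-specific Pde7b, at 19.2 to 46.5 CPM in P7 controls and 23.1 to 36.8 CPM in P7 cKO cortex, r was 0.930 (exact permutation, adjusted p = 0.0331) and 0.750 without libraries 43 and 41, and its rho of 0.881 missed the threshold (exact permutation, adjusted p = 0.125). Pde1b (r = 0.878, rho = 0.810, adjusted p = 0.165 and 0.267, exact permutation) and Adcy5 (r = 0.859, rho = 0.738, adjusted p = 0.214 and 0.328, exact permutation) did not pass, and without libraries 43 and 41 their r was 0.584 and 0.676. These values pool the genotypes, since 4 libraries of 1 genotype are too few for a correlation. At P0, no relation passed, the smallest adjusted p being 0.251 for r (Pde7b) and 0.125 for rho (Pde7b and Gucy1b3), by exact permutation. The P7 genotype difference of Pde10a was 0.33 (SE 0.23, adjusted p = 0.588) over all 8 libraries, and 0.64 (SE 0.14, adjusted p = 0.0212) without control library 43. Library 43 held the highest control value of Pde10a, so leaving it out raises the difference by construction. Leaving out any other single library gave no call (limma adjusted p from 0.313 to 0.833), and neither did edgeR (adjusted p = 0.777) or DESeq2 (adjusted p = 0.926). With libraries 43 and 41 both left out, an alternative chosen after the data were seen, it was 0.52 (SE 0.11, adjusted p = 0.0255). In those 6 libraries the striatal sum was 225 to 242 CPM in controls and 270 to 383 CPM in cKO cortex, and its part in the Pde10a difference was not tested. For the called genes, none passing, r was -0.481 for Adcy2, -0.189 for Pde1a and 0.523 for Pde3a, and -0.913, 0.615 and 0.824 without libraries 43 and 41. With those libraries left out, the striatal sum itself separated the genotypes, as the called genes did by their selection. Each r without libraries 43 and 41, that of Pde10a included, therefore cannot be told apart from a genotype difference. Gucy1a3 had r = 0.796 and Prkg2 r = -0.807 (adjusted p = 0.251 for each, exact permutation), and 0.912 and -0.737 without libraries 43 and 41.

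Soluble guanylyl cyclase is a pair of an alpha and a beta subunit, and its main transcripts were Gucy1a3 and Gucy1b3. In P0 controls Gucy1a3, the alpha-1 subunit, held 56.3% ± 1.77 of the summed level per kb and Gucy1b3, the beta-1 subunit, 40.4% ± 2.52 (SD, n = 4). In P7 controls Gucy1b3 held 52.4% ± 1.87, Gucy1a3 36.3% ± 2.73 and the alpha-2 subunit Gucy1a2 11.01% ± 0.950. In P7 cKO cortex the shares were 47.1% for Gucy1b3, from 43.7% to 49.99% over the libraries, and 41.7% for Gucy1a3, from 39.8% to 46.1%, a difference from controls that was not tested. No guanylyl cyclase was called for genotype. Gucy1b3 had 318 to 364 CPM in P7 controls and 260.5 to 339 CPM in P7 cKO cortex, at -0.16 (SE 0.07, adjusted p = 0.316), and Gucy1a3 had 346 to 499.7 and 413 to 559.8 CPM, at 0.20 (SE 0.10, adjusted p = 0.409). Gucy2e, a membrane guanylyl cyclase, was low, with 1.05 to 1.98 CPM in P7 controls and 2.02 to 2.93 CPM in P7 cKO cortex, at 0.49 (SE 0.16, adjusted p = 0.128). Gucy1b2, the beta-2 subunit, had 1.09 to 1.75 and 1.38 to 2.27 CPM at P7, at 0.36 (SE 0.16, adjusted p = 0.318). At P0 the log2 fold changes of Gucy1a2, Gucy1b2, Gucy1b3 and Gucy2e were 0.03, -0.04, -0.08 and 0.18, with standard errors of 0.15, 0.27, 0.15 and 0.16. Gucy2g, a receptor-type cyclase, ranged over 0.110 to 0.663 CPM in the P0 libraries and 1.68 to 2.60 CPM in the P7 libraries.

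Among the kinase subunits, the PKA catalytic subunit Prkacb and the regulatory subunits Prkar1a and Prkar2b were the most abundant per kb beside Adcy1 and Gucy1b3 in P7 controls. None was called for genotype. Prkacb had 464 to 587 CPM in P0 controls and 602 to 635 CPM in P0 cKO cortex, which did not overlap, at 0.23 (SE 0.08, adjusted p = 0.194), and 699 to 767 and 734 to 829 CPM at P7, at 0.12 (SE 0.05, adjusted p = 0.256). Prkar2b, the type II regulatory subunit that predominates in neurons, had 188 to 369 CPM in P0 controls and 339 to 415 CPM in P0 cKO cortex, at 0.39 (SE 0.16, adjusted p = 0.240), with control library 2 lowest. At P7 its ranges of 404 to 464 and 441 to 466 CPM overlapped, at 0.08 (SE 0.05, adjusted p = 0.551). The other catalytic subunit Prkaca, at 86.8 to 120.5 CPM over the P0 libraries and 93.9 to 111 CPM over the P7 libraries, had 0.13 at P0 (SE 0.10, adjusted p = 0.485) and 0.02 at P7. Prkar1b, the type I regulatory subunit of brain, had 0.10 at P0 (SE 0.08, adjusted p = 0.525) and 0.09 at P7 (SE 0.07, adjusted p = 0.660). Prkar2a and Prkar1a had means of 174 and 431 CPM in P7 controls, with P7 log2 fold changes of 0.01 and 0.00. Prkg1, the main PKG of neurons and smooth muscle, had 144 to 164 CPM in P7 controls and 157 to 196 CPM in P7 cKO cortex, at 0.17 (SE 0.07, adjusted p = 0.264), and Prkg2 had 10.2 to 16.5 and 9.72 to 18.2 CPM.

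No member passed the test of whether its genotype effect differed between the 2 ages. Limma called 0 of 44, where 0.751% of 13444 genes passed. An unadjusted p under 0.05 was found for 9 members and 15.6% of all genes. EdgeR and DESeq2 each called 0 members, and 0.766% and 2.12% of all genes. The smallest adjusted p was that of Pde8a. A call at P7 and none at P0 therefore does not show, for Adcy2, Pde1a or Pde3a, that the effect differed between ages.

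Most members differed between ages, 36 of 44, and so did 82.5% of all genes tested. Between P7 and P0 controls, 26 of 44 members rose and 10 fell, by limma at an adjusted p under 0.05, where 35.1% of all genes rose and 47.3% fell. Gucy2g and Pde6c entered this test only through their P7 libraries and so count among the higher ones. The median log2 fold change was 0.46 over the members and -0.19 over all genes, and the latter was 0.01 when libraries were scaled by medians of ratios, which left 28 members higher and 8 lower, against 41.7% and 41.3% of all genes. Of the 36 called members, Prkar1a alone changed sign with the scaling, from -0.19 to 0.03. Age and sequencing platform cannot be told apart in these values.

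**Figure D5:**
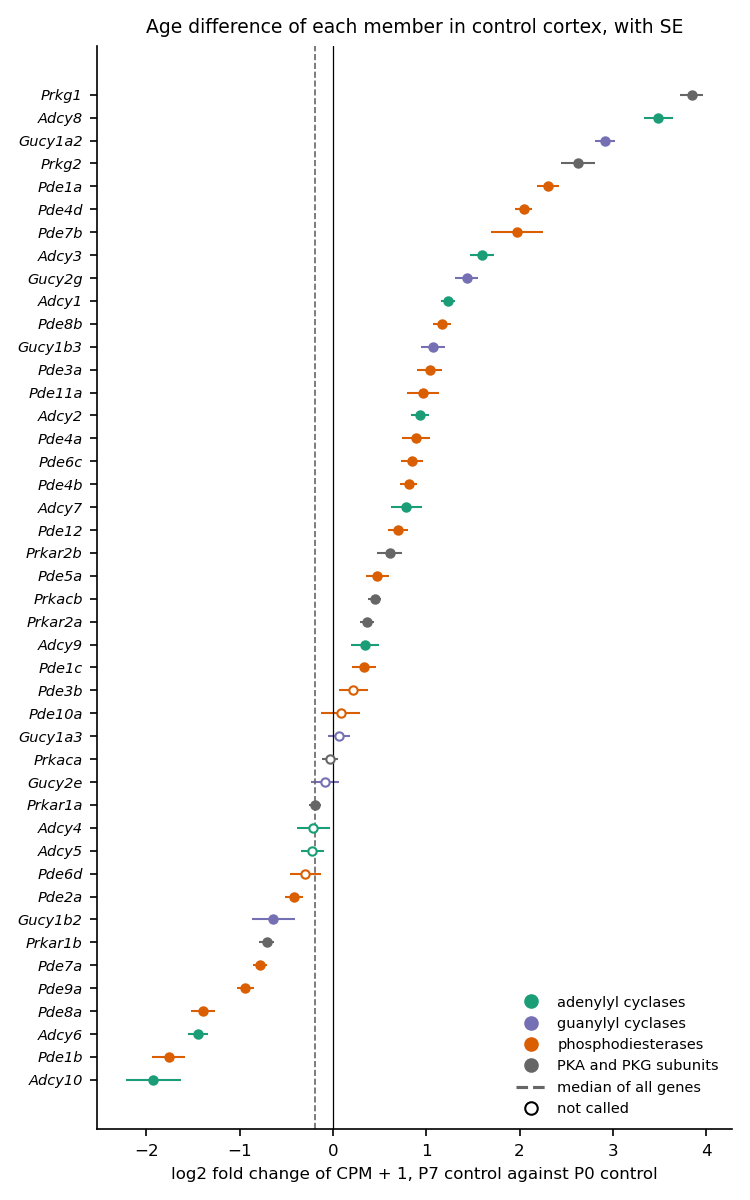
Log2 fold change of CPM + 1 between P7 and P0 control cortex (x axis) for each of 44 members (y axis), with bars for the standard error, colours for the enzyme class, open points for adjusted p of 0.05 or more and a dashed line at the median of all genes, -0.19. Prkg1 is the highest at 3.84 and Adcy10 the lowest at -1.92.

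On the log2(CPM + 1) scale, the 5 largest increases were those of the cyclic GMP-dependent kinases Prkg1 and Prkg2, the calcium-stimulated cyclase Adcy8, Gucy1a2 and Pde1a. The order depends on the added 1 CPM: edgeR and DESeq2 put Prkg2 and the low-level genes Gucy2g and Pde6c above Gucy1a2. Prkg1 (chromosome 19, 30564489 to 31765033) had a mean of 10.3 ± 2.30 CPM at P0 and rose to 158 ± 9.43 CPM (SD, n = 4), a log2 fold change of 3.84 (SE 0.12, limma adjusted p = 1.31e-16), or 4.03 relative to the median of all genes. Adcy8, at 11.4 ± 4.02 CPM at P0, rose to 134 ± 7.76 CPM, with a log2 value of 3.49 (SE 0.15). Gucy1a2 (15.2 ± 2.99 to 119.8 ± 1.47 CPM) rose by 2.92, Prkg2 (1.34 ± 0.372 to 13.5 ± 2.58 CPM) by 2.63 and Pde1a (36.8 ± 2.91 to 187 ± 25.5 CPM) by 2.30. Pde4d (78.2 to 323 CPM), Pde7b (6.54 to 28.2 CPM) and Adcy3 (8.86 to 28.9 CPM) followed, with 2.04, 1.97 and 1.60. On the other strand, Prkg1 overlaps Cstf2t, Adcy8 overlaps Gm21798 and Adcy3 overlaps Cenpo. The same holds for Pde10a with Gm17087 and for Pde12 with Arf4. The strand setting of the counting is not given in the sources used here.

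Adcy10 fell from 9.67 ± 1.08 to 1.93 ± 0.927 CPM (SD, n = 4), a log2 fold change of -1.92 (SE 0.29, limma adjusted p = 4.33e-06). Pde1b (chromosome 15, 103503034 to 103530052) fell from 81.3 ± 7.57 to 24.3 ± 9.37 CPM, at -1.76 (SE 0.18), with control library 43 at 38.1 CPM and the other 3 P7 controls at 17.8 to 22.5 CPM. Adcy6 (58.9 ± 7.05 to 21.0 ± 2.27 CPM), Pde8a (24.1 ± 2.89 to 8.50 ± 0.460 CPM) and Pde9a (64.2 ± 5.44 to 33.0 ± 2.78 CPM) fell by 1.45, 1.39 and 0.94 on the log2 scale. By class, 6 of 10 cyclases, 12 of 20 phosphodiesterases, 3 of 6 guanylyl cyclases and 5 of 8 kinase subunits rose, and 2, 5, 1 and 2 fell. Of all genes, 35.1% rose and 47.3% fell. The rises include Gucy2g and Pde6c, which entered the test only through their P7 libraries. Within the Pde1 family, Pde1a and Pde1c (0.34) rose while Pde1b fell, and among the PKA regulatory subunits Prkar2b (0.61) and Prkar2a (0.36) rose while Prkar1b (-0.71) fell.

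Of 66 other genes of the pathway, 54 were tested at P7, of which 3 rose and 3 fell with Foxp1 deletion. Of all genes, 1.67% rose and 2.05% fell. The list of pathway genes was chosen with earlier results of these data known, so its calls cannot be weighed against these shares. The median log2 fold change was 0.03 over the 54. Adcyap1, the gene of the neuropeptide PACAP that acts through cyclase-coupled receptors, rose from 21.9 ± 2.13 to 31.8 ± 1.82 CPM (SD, n = 4), a log2 fold change of 0.52 (SE 0.08, limma adjusted p = 0.00202). The PKA anchor gene Akap9 rose from 531 ± 13.3 to 679 ± 30.9 CPM, at 0.35 (SE 0.04, adjusted p = 0.000282), and Npr3, the natriuretic peptide clearance receptor, from 37.6 ± 3.31 to 49.2 ± 4.65 CPM, at 0.38 (adjusted p = 0.0165). Adora1, an adenosine receptor that inhibits adenylyl cyclase, fell from 169 ± 2.51 to 146 ± 2.14 CPM, at -0.22 (SE 0.04, adjusted p = 0.0104), and Bves, a popeye-domain protein that binds cyclic AMP, from 1.63 ± 0.136 to 0.770 ± 0.0661 CPM, at -0.57 (adjusted p = 0.0378). Bves entered this test only through its controls, since no cKO library reached 1 CPM. In each of these named genes the 4 cKO values lay beyond the 4 control values. At P0 none of the 47 tested was called, against 0.254% of all genes. Adora1, at 63.4 ± 4.20 CPM in P0 controls and 73.6 ± 5.52 CPM in P0 cKO cortex, alone of 55 passed the test of the difference between ages, as 0.751% of all genes did, at -0.43 (SE 0.10, adjusted p = 0.0416).

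Other cell type markers were also summed in each group. At P0 the progenitor sum was 430 ± 66.9 CPM in controls and 316 ± 11.8 CPM in cKO cortex, the microglial sum 33.2 ± 1.97 and 38.8 ± 2.81 CPM, and the blood sum 20.2 to 28.7 and 15.6 to 19.0 CPM, each without overlap (SD, n = 4, exact two-sided permutation p = 0.0286, not adjusted over the 11 lists). At P7, 11 marker lists were compared and none had p under 0.05, the striatal sum being 306 ± 152 CPM in controls and 352 ± 75.3 CPM in cKO cortex (exact permutation p = 0.657). The part of these marker levels in the P0 values of the members was not tested.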

How the data were processed

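Polyadenylated RNA of 16 cortex libraries, 4 per group, was analysed from 1 table. Its values are CPM that the authors deposited, and STAR, HTSeq, edgeR and the builds mm10 and GRCm38 are named in the submitters' processing notes; the sources used here give no versions or settings. All values were whole multiples of 1 read to within 0.01 read, so reads were recovered. A count of 0 allows up to 3 reads, or 0.165 to 0.167 CPM for P0 libraries and 0.196 to 0.304 CPM for P7 libraries, for counting error only.

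Each age was fitted over its 8 libraries with limma 3.58.1 (R 4.3.3, eBayes with a trend) on log2(CPM + 1), for genes that reached 1 CPM in 4 or more libraries of the fit, with Benjamini-Hochberg adjustment over all genes and calls under 0.05. The added 1 CPM understates the fold changes of low genes. The differences between ages came from 1 fit over 16 libraries. Single sums used exact permutation tests. Correlations used log2(CPM + 1) of the member and of the summed markers, and were adjusted over 86 relations. Values per kb used exon lengths of GENCODE M21, which matched 47 members by symbol and 2 (Gucy1a3, Gucy1b3) by an older symbol, and which may differ from the authors' annotation. Scripts were tested on simulated data.

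The members, the 66 pathway genes and the marker lists were chosen with earlier results of these data known. Full statistics were given for called members, for up to 4 members per enzyme class with the smallest p at each age, and for the 5 largest age changes in each direction. Other members named in detail, such as Pde10a, were chosen after their values were seen. Replicate libraries differed by more than counting error, with a chi-square per gene from 2.68 to 39.4. It was highest between P0 controls, at 14.2 to 39.4, against 7.57 to 10.0 between P0 cKO libraries. P7 controls had 2.68 to 6.19 and P7 cKO libraries 3.49 to 8.98. Alternatives were pseudocounts, filters, scalings, spread models, edgeR 4.0.16, DESeq2 1.42.0, 1 joint fit and left-out libraries. The counts of pathway genes include 1 gene that is not reported here by name.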

Additional observations from a re-analysis of the deposited data

Results flagged for a closer look

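In 12 of 176 checks of a member in a group of 4 libraries, 1 library lay far from the other 3, with a gap beyond Dixon's critical value for a group of 4. Chance gives about 1 in 20 such checks. Control library 43 at P7 had 3 of them: Pde10a at 317 CPM against 133 to 137 CPM in the other controls, Gucy1b2 at 1.75 CPM against 1.09 to 1.13 CPM, and Adcy9 at 23.0 CPM against 28.6 to 29.5 CPM. Its summed striatal marker level was 534 CPM against 225 to 242 CPM.

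Control library 2 at P0 was low for Pde10a, at 129 CPM against 166 to 169.6 CPM, and for Pde6d, at 21.6 CPM against 42.5 to 45.4 CPM. Among the other P0 controls, library 5 was low for Pde3a (7.02 CPM) and library 6 high for Gucy2g (0.501 CPM). In P0 cKO cortex, library 3 was high for Adcy4 (2.16 CPM), library 7 high for Pde4b (79.4 CPM) and library 8 low for Adcy6 (55.3 CPM). At P7, cKO library 41 was low for Adcy8 (105 CPM, against 124 to 127 CPM) and control library 47 low for Prkg1 (144 CPM, against 162 to 164 CPM).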

How the results depend on the processing

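At P0, where limma called 0 members, DESeq2 called 3 (Pde11a, Pde1a, Pde1c), 1 fit over all 16 libraries 4 (Pde11a, Pde1a, Pde7a, Prkacb), and the fit without control libraries 2 and 6 called 1 (Adcy8), while the share of all genes called went from 0.254% to 3.41%, 5.91% and 0.947%. At P7 the count of 3 became 0 in 1 fit over all 16 libraries and ran from 1 to 4 when single libraries were left out, with 1 without control library 46 and 4 without control library 43, which added Pde10a; of all genes, 1.30%, 2.20% and 2.89% were called in the joint fit, without library 46 and without library 43. Over 20 alternatives at P7, Adcy2 was called in 16, Pde1a in 19 and Pde3a in 18, all in the same direction, with adjusted p up to 0.0737, 0.0520 and 0.0757. The difference between ages had 1 call with array weights (Adcy8) and 2 without P0 control libraries 2 and 6 (Adcy8, Gucy1b2), where 1.44% and 1.31% of all genes were called. The 36 calls between ages ran from 33 to 38 when single libraries were left out, where 80.7% to 83.1% of all genes were called. The causes of these differences were not tested. No paired analysis was possible because the labels name no block or batch within an age that would pair libraries. Depth limits the members near 1 CPM, such as Adcy4, Gucy1b2, Gucy2e and Pde11a, most of all.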
